A study of Mus musculus with 4 samples.

Results

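Immediate early genes are transcribed within minutes of a stimulus and need no new protein synthesis for it. Here 9 of them were followed by cell type and library in hearts lacking endocardial Tie2 and in controls: Egr1, Fos, Fosb, Jun, Junb, Ier2, Ier3, Atf3 and Dusp1. They were chosen as a fixed list of symbols, each of which had 1 row among the 32285 genes of the count tables. The question was whether the genotypes differed in Egr1, or whether the members moved together in whole libraries. Hearts at E10.5, an embryonic day at midgestation, were dissociated and profiled by 10x single-cell RNA sequencing. The assay counts unique molecular identifiers (UMIs), that is, captured transcripts, per gene and cell. Every library went through a first and a second enzyme step of 5 min each and a 70 µm strainer, with a viability minimum of 90%. Libraries 5 and 7 (control) came from Tie2fl/fl embryos, and libraries 6 and 8 (Tie2-cko) from Nfatcre-Tie2fl/fl embryos. Both genotypes therefore carry floxed Tie2 (Tek) alleles, and Nfatc1 Cre, which is active in endocardial cells (EdCs), sets them apart. By the methods, the genotypes were matched for somites within 1 litter, without saying which library matches which, and the controls are not stated to carry Cre.

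In GENCODE M21 (GRCm38), Egr1 (ENSMUSG00000038418) lies at chr18:34859823-34864984 on the plus strand, with up to 3 exons in a transcript. Fos lies at chr12:85473890-85477273 (plus, 4 exons), Fosb at chr7:19302696-19310051 (minus, 5 exons), Jun at chr4:95049034-95052222 (minus, 1 exon) and Junb at chr8:84974484-84978718 (minus, 2 exons). Ier2 lies at chr8:84661331-84662852 (minus, 1 exon), Ier3 at chr17:35821684-35822923 (plus, 2 exons), Atf3 at chr1:191170296-191218039 (minus, 5 exons) and Dusp1 at chr17:26505590-26562128 (minus, 6 exons). All are protein coding. Jun overlaps Junos, Junb overlaps Prdx2, and Dusp1 overlaps Ergic1 and AC122252.1 in this annotation, and how the counting treated strand is not given in the sources used here, so that a part of these 3 genes' UMIs is uncertain.

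Egr1 encodes a zinc finger factor, and Fos, Fosb, Jun and Junb encode the partners of the AP-1 dimer. Atf3 is a stress-induced bZIP factor related to CREB, Ier2 and Ier3 are early response genes, and Dusp1 is a phosphatase that removes phosphates from MAP kinases. Serum response factor with its ETS partners, and CREB, carry MAP kinase and calcium signals to the start sites of these genes. The same genes are known to rise when tissue is taken apart enzymatically, and TIE2 signals in endothelium through PI3K-AKT and MAP kinases.

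RefSeq promoter windows (GRCm38.p6, 250 bases before to 50 after the start site) were at hand for 7 of the 9 members, with none for Egr1 and Ier2. The 250 bases before the start site are shown for 4 members whose levels correlate in pairs below, Fos with Fosb and Atf3 with Dusp1. Capitals mark the CREB/ATF core TGACG or, on the other strand, CGTCA, which also lies within the full CRE TGACGTCA, so that these 2 counts overlap. The windows are chr12:85473640-85473889 (plus) for Fos, chr7:19310046-19310295 (minus) for Fosb, chr1:191183334-191183583 (minus) for Atf3 and chr17:26508473-26508722 (minus) for Dusp1.
Fos: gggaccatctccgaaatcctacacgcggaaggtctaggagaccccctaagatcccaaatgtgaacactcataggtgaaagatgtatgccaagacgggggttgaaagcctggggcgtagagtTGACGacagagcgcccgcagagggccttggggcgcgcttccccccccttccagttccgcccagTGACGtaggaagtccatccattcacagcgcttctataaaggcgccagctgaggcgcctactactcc
Fosb: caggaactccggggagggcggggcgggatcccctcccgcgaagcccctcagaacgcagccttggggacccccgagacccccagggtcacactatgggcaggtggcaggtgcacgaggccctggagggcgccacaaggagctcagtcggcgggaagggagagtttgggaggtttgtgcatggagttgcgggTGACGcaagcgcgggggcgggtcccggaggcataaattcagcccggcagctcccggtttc
Atf3: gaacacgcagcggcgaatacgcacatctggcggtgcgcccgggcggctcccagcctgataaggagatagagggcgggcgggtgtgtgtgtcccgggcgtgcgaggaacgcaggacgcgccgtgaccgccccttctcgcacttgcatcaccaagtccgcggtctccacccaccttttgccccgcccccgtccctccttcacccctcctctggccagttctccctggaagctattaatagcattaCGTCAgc
Dusp1: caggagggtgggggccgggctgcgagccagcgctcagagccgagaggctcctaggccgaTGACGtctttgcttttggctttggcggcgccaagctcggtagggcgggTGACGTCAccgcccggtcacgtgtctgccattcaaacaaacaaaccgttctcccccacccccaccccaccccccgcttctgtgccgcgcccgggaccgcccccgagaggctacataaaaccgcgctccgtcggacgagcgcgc
Searched on both strands over the 300 bases, TGACG was held by 5 of 7 members (Fos, Fosb, Junb, Atf3 and Dusp1) and by 20.8% of all 32851 windows. Ier3, whose level correlates with Dusp1 as closely as that of Atf3 does below, was not among them, and its window is not shown. TGACGTCA was held by Dusp1, beginning 143 bases before the start site, and by 1.79% of windows. The serum response element, searched as CC, then 6 bases of A or T, then GG, was in 0 of 7 windows (1.63% of all), and the AP-1 site (TGACTCA or TGAGTCA) also in 0 (5.20%). TATAAA was in 2 (Fos and Junb; 13.6% of all), the FOXO core TGTTTAC in 1 (Junb; 3.65%) and the EGR site (GCGTGGGCG or GCGGGGGCG) in 1 (Fosb; 3.47%). These matches describe letters in these windows and nothing more.

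The 4 libraries held from 169361996 to 259775540 UMIs, and 33419 cells passed the filters, from 5684 in library 6 to 10097 in library 5. The median cell held 14878 to 25875 UMIs, with the highest depth in library 6. Any 2 libraries shared 29 to 62 barcodes. Cells were clustered without the members and the listed genes, and clusters were named from markers. Chamber EdCs (cluster led by Emcn, Tm4sf1 and Irx5) numbered 378, 136, 593 and 461 in libraries 5, 6, 7 and 8, and cushion EdCs (led by Stmn2, Klf2 and Nts) 234, 117, 410 and 398. Cardiomyocytes (CMs), mesenchymal cells (MCs), epicardial, vascular endothelial, epithelial and red blood cells and macrophages completed the 9 cell types compared. A further cluster of 1553 cells led by Klhl4, AY036118 and Irx5 held few UMIs, was left unnamed and is not among the chamber EdCs. Libraries 7 and 8 held only 26 and 35 macrophages against 252 and 145 in libraries 5 and 6, so that the cell content of the libraries also divided along this line. Tek, the deleted gene, was at 0.888 (library 5) and 1.00 (library 7) UMIs per 10000 in chamber EdCs of controls, against 0.127 (library 6) and 0.148 (library 8) in Tie2-cko, as the labels state. Levels below are UMIs per 10000, computed cell by cell and then averaged within a library. They are not per length, since the assay counts transcript ends.

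Macrophages or cushion EdCs held the highest mean level of each. Macrophages led for Egr1 (1.08 ± 0.336, SD over 4 libraries), Fos (2.83 ± 1.51), Fosb, Junb and Ier2. Cushion EdCs led for Jun (3.0 ± 0.349), Atf3 (1.04 ± 0.192), Ier3 (0.563 ± 0.0893) and Dusp1 (0.542 ± 0.0950). Red blood cells held the lowest mean level of 7 members, while Junb was lowest in epicardial cells (0.0788 ± 0.0130) and Dusp1 in epithelial cells (0.0849 ± 0.0251). Neighbours in the order mostly overlapped in their ranges over libraries. Fos in macrophages (lowest library 1.67) stood clear of the next type, the epicardial cells, and Atf3 in MCs (0.476 to 0.566) stood clear of chamber EdCs (0.274 to 0.429).

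The place of chamber EdCs among heart cell types depended on the member. Their Egr1 level lay below that of cushion EdCs, CMs and epicardial cells of the same library in all 4 libraries. Their Ier2 level lay above that of CMs (120% to 177% of it), MCs (105% to 155%) and epicardial cells (114% to 199%) in all 4. Junb and Dusp1 were likewise above the CM level in all 4 libraries, and Atf3 in 3. Within CMs, the cluster led by Shox2, Gal and Bmp2 held a summed level of the 8 members other than Egr1 of 5.77, 7.0, 12.1 and 7.60 in libraries 5, 6, 7 and 8, against 1.44 to 6.57 in the other 4 CM clusters. Shox2 marks the sinoatrial region.

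**Figure D1:**
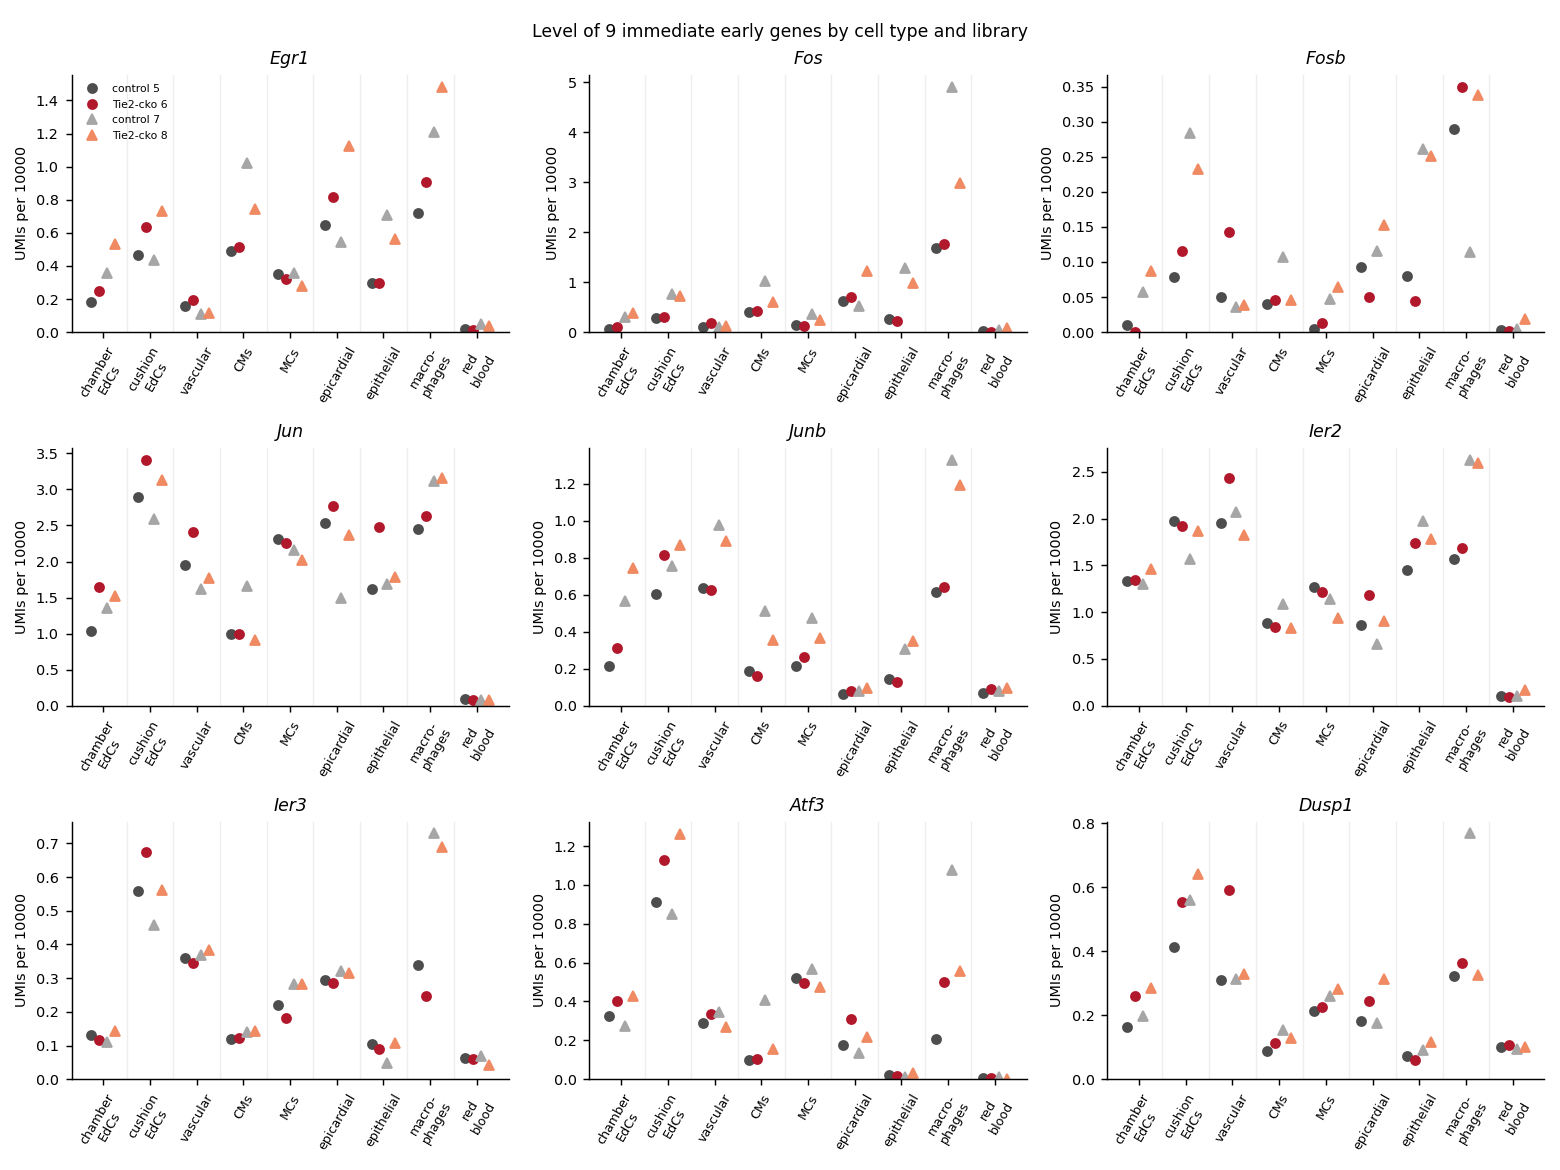
Level of each of the 9 members (vertical axis, UMIs per 10000 UMIs, mean over the cells of a library) in 9 cell types. Each point is 1 library, dark and light grey for control 5 and 7, dark and light red for Tie2-cko 6 and 8. Red blood cells have the lowest mean in 7 of the 9 panels, and in macrophages libraries 7 and 8 lie above 5 and 6 for 7 of the 9 members.

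The members' values were counted along a library line, 5 and 6 against 7 and 8, and between genotypes within it. Over the 81 values of 9 members in 9 cell types, libraries 7 and 8 were both above libraries 5 and 6 in 40 and both below in 8. Tie2-cko was above control in both pairs along that line (6 over 5 and 8 over 7) in 34 and below in both in 14. These pairs were above and below in 7 and 0 of 9 members in chamber EdCs, in 6 and 0 in cushion EdCs, in 7 and 1 in epicardial cells, in 1 and 2 in CMs and in 2 and 5 in MCs. Both Tie2-cko libraries were above both controls in 20 and below in 4. The shares of all genes with these patterns are not given here, and the members are not independent of each other. Fos, Fosb and Junb each followed the library line in 7 of 9 cell types and Egr1 in 5. For Fosb the count includes values near its detection limit. Red blood cells held 7, 6, 8 and 5 Fosb UMIs in libraries 5 to 8, and chamber EdCs of library 6 held 0. In CMs Fosb was nearly level between libraries 6 and 8, at 0.0462 and 0.0463. Jun did so in 1 and went the other way in 4. The labels name no batch for libraries 5 and 6 or 7 and 8, and this division was read from earlier results of these data. The counts along it therefore describe the members and do not test the division.

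Fos followed the library line in 7 cell types and opposed it in none, as did Junb. In chamber EdCs it stood at 0.0610 and 0.0949 in libraries 5 and 6 and at 0.30 and 0.375 in libraries 7 and 8. In cushion EdCs its levels were 0.274 and 0.304 against 0.765 and 0.717, and in epithelial cells 0.266 and 0.228 against 1.29 and 0.992. Control library 7 was as high as Tie2-cko library 8 in these cells or higher, except in chamber EdCs. Epicardial cells did not follow this line, with Fos at 0.616 and 0.702 in libraries 5 and 6 and at 0.528 and 1.22 in libraries 7 and 8.

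Within that line, library 7 was the highest of the 4 for 8 of 9 members in CMs, and library 8 for 8 of 9 members in chamber EdCs. For most members, the 2 cell types of the same suspension thus put different libraries on top. How often each library was highest over all genes is not given here, and the members are not independent of each other. In epicardial cells library 7 was the lowest for 6 of 9 members.

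**Figure D2:**
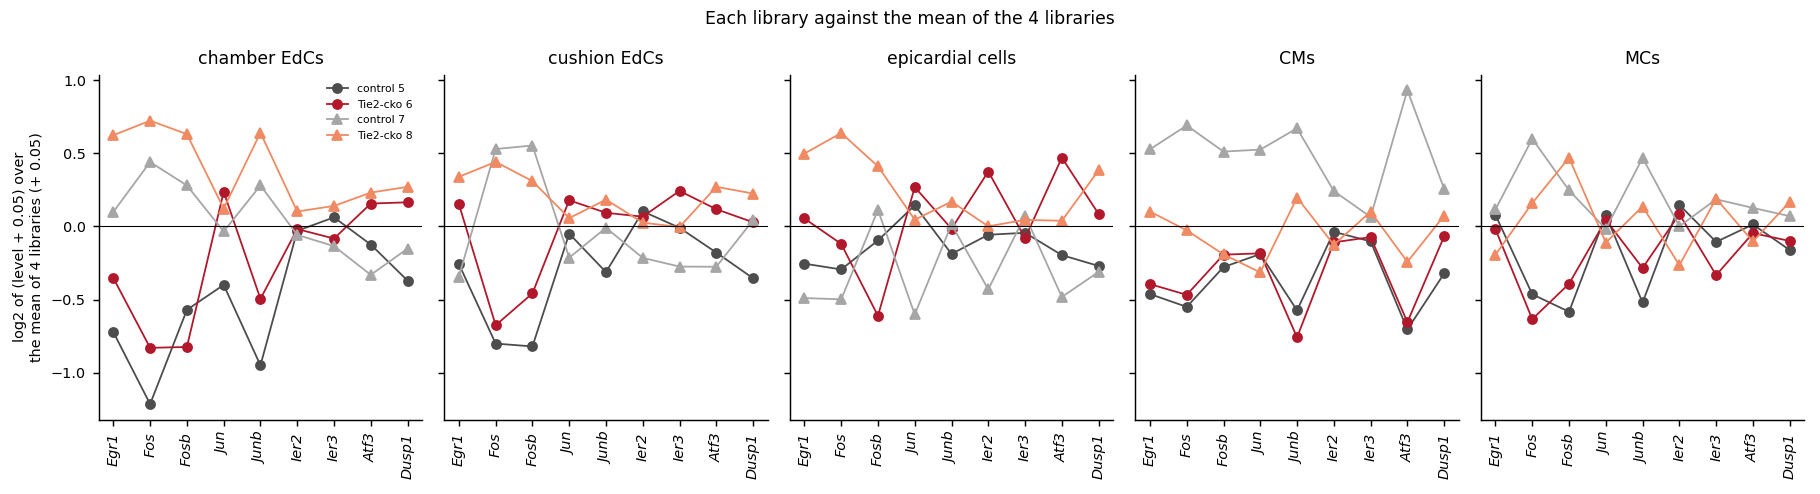
Each library's level of each member against the mean of the 4 libraries, as log2 of the ratio after 0.05 was added to both, in 5 cell types. Lines only join the points of a library. Library 7 is on top in CMs for 8 of 9 members, library 8 in chamber EdCs for 8 of 9.

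Among controls, chamber EdCs of library 5 held Egr1 at 0.180 and those of library 7 at 0.356. Among Tie2-cko, library 6 held 0.247 and library 8 held 0.534. The genotypes overlapped, since control library 7 lay above Tie2-cko library 6. Its UMIs summed over chamber EdCs numbered 149, 151, 364 and 362 in libraries 5 to 8. With edgeR's quasi-likelihood test on summed counts, the log2 fold change of Tie2-cko over control was 0.40 ± 0.37 (SE, n = 2 libraries per genotype, adjusted p = 0.880), and it was 0.95 with control library 7 left out and -0.26 with Tie2-cko library 8 left out. Of 11517 genes tested in chamber EdCs 0.00868% passed the threshold of 0.05, namely Tek alone, and none of the 9 members did. With a block for libraries 5 and 6 against 7 and 8, a division that the labels do not give, Egr1 passed at 0.39 ± 0.12 (adjusted p = 0.0206). Jun, Atf3 and Dusp1 passed too, and the number of genes past the threshold rose from 1 to 882, or 7.66% of those tested. Calls with this block, here and below, rest on a division chosen with earlier results of these data known. The labels do not say whether libraries are separate hearts (the methods give 2 hearts a genotype from 1 litter), so that p-values measure only the spread between these libraries. In sums of cells, fewer expressing cells and less RNA per cell cannot be told apart.

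Among the AP-1 members in chamber EdCs, Jun separated the genotypes and Junb did not. Jun was 1.04 and 1.35 in controls and 1.64 and 1.52 in Tie2-cko, without overlap, and its log2 fold change was 0.34 ± 0.15 (adjusted p = 0.716). Junb was 0.214 and 0.568 in controls and 0.311 and 0.744 in Tie2-cko, so that library 7 exceeded library 6, at 0.24 ± 0.48. Fosb was near its detection limit, with 9, 0, 50 and 49 UMIs in libraries 5 to 8. In library 6, 0 of 136 chamber EdCs held a Fosb UMI, which allows a share of up to 2.21% of cells with a detected UMI. That limit covers counting error only and says nothing of cells that express Fosb without a captured UMI.

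Atf3 and Dusp1 were the members with the clearest separation of genotypes in chamber EdCs. Atf3 was 0.324 and 0.274 in controls and 0.405 and 0.429 in Tie2-cko. Dusp1, the MAP kinase phosphatase, was 0.164 and 0.199 in controls and 0.260 and 0.284 in Tie2-cko. The genotypes did not overlap for either gene. The log2 fold changes were 0.47 ± 0.17 for Atf3 (unadjusted p = 0.0234, adjusted p = 0.649) and 0.70 ± 0.18 for Dusp1 (unadjusted p = 0.00399, adjusted p = 0.399). These 2 of 9 members had an unadjusted p under 0.05, a level that 7.02% of all genes tested reached in these cells.

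Ier2 and Ier3 moved little. Ier2, the most abundant member in chamber EdCs beside Jun, was 1.33 and 1.30 in controls and 1.34 and 1.46 in Tie2-cko, and summed counts gave -0.07 ± 0.13, of the other sign than the mean levels. Ier3 was 0.133 and 0.109 in controls and 0.115 and 0.143 in Tie2-cko (0.08 ± 0.20). The median log2 fold change of the 9 members in chamber EdCs was 0.24, beside 0.0050 over all genes tested, and 8 of 9 were above 0.

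In cushion EdCs, which line the valve primordia, none of the 9 members passed either (0.0535% of genes did). Here 2 of 9 members (Egr1 and Atf3) had an unadjusted p under 0.05, as had 2.13% of genes. Egr1 was 0.468 and 0.438 in controls and 0.638 and 0.733 in Tie2-cko, without overlap, at 0.49 ± 0.19 (unadjusted p = 0.0280, adjusted p = 1.00). Atf3 was 0.911 and 0.849 in controls and 1.13 and 1.26 in Tie2-cko, at 0.39 ± 0.16. Fos was -0.03 ± 0.47 there. With the block for libraries 5 and 6 against 7 and 8, Egr1 passed (0.49, adjusted p = 0.0192), as did 0.588% of genes.

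Epicardial cells, which the Nfatc1 Cre is not stated to target, had the highest median genotype difference of the members among the 5 cell types described. Egr1 was 0.649 and 0.544 in controls and 0.816 and 1.13 in Tie2-cko, without overlap, at 0.77 ± 0.18 (unadjusted p = 0.00253, adjusted p = 1.00). Fos was 0.616 and 0.528 in controls and 0.702 and 1.22 in Tie2-cko, at 0.78 ± 0.21, and Dusp1 0.181 and 0.174 against 0.245 and 0.313, at 0.60 ± 0.17. In all, 4 of 9 members (Egr1, Fos, Atf3 and Dusp1) had an unadjusted p under 0.05, where 1.11% of genes did, and none passed after adjustment (0.0335% of genes did). The median of the members was 0.54 beside 0.0038 over all genes. Without Tie2-cko library 6, Egr1 and Fos passed. With the same block 6 members passed, as did 0.502% of genes, among them Egr1 (0.76) and Fos (0.76). That division was chosen with earlier results known, so that these calls are descriptions. Tek itself, at -0.14 ± 0.15, was not lower in these cells beyond its error, whereas it was -1.58 ± 0.44 in CMs and -2.21 ± 0.34 in MCs (adjusted p = 1.00 and 0.619). In CMs Tek was barely detected, at levels of 0.00724, 0.00700, 0.00743 and 0.00125 in libraries 5, 6, 7 and 8. On this scale library 8 alone was lower, while summed counts without library 8 gave -1.06. With each library left out in turn, all 9 members kept the sign of their fold change in epicardial cells. In cushion EdCs 5 did, and in chamber EdCs 3 (Jun, Atf3 and Dusp1). Ier3 in epicardial cells, at -0.12, came as near to 0 as -0.007. The shares of all genes keeping their sign are not given here.

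CMs and MCs did not share this direction. In CMs Egr1 was 0.489 and 1.02 in controls and 0.515 and 0.746 in Tie2-cko (-0.20 ± 0.40), the median of the 9 members was -0.30, and Atf3 gave -0.97 ± 0.59. Atf3 in CMs rested on library 7, with 0.0974, 0.103, 0.408 and 0.153 in libraries 5, 6, 7 and 8. In MCs Egr1 was 0.349 and 0.360 in controls and 0.323 and 0.281 in Tie2-cko (-0.22 ± 0.15), with both Tie2-cko libraries below both controls, and the median of the members was -0.12. No gene passed in either type (0% of 15553 and 12739 genes), 0.386% and 1.03% had an unadjusted p under 0.05, and 0 of 9 members had one in either. With the block for libraries 5 and 6 against 7 and 8, Fosb and Atf3 passed in CMs (0.457% of genes did), both lower in Tie2-cko, and no member passed in MCs (0.761%). DESeq2 called 0 of 9 members in each of the 5 cell types described, with 1 gene in CMs and 7 in MCs. None of the members tested passed in epithelial cells (0.0241% of genes did), or in macrophages, red blood cells and vascular endothelial cells (0% in each). An unadjusted p under 0.05 was reached there by 1 member, Fos in vascular endothelial cells (0.676% of genes), and by 0 in epithelial cells (0.66%), macrophages (0.67%) and red blood cells (0.431%).

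**Figure D3:**
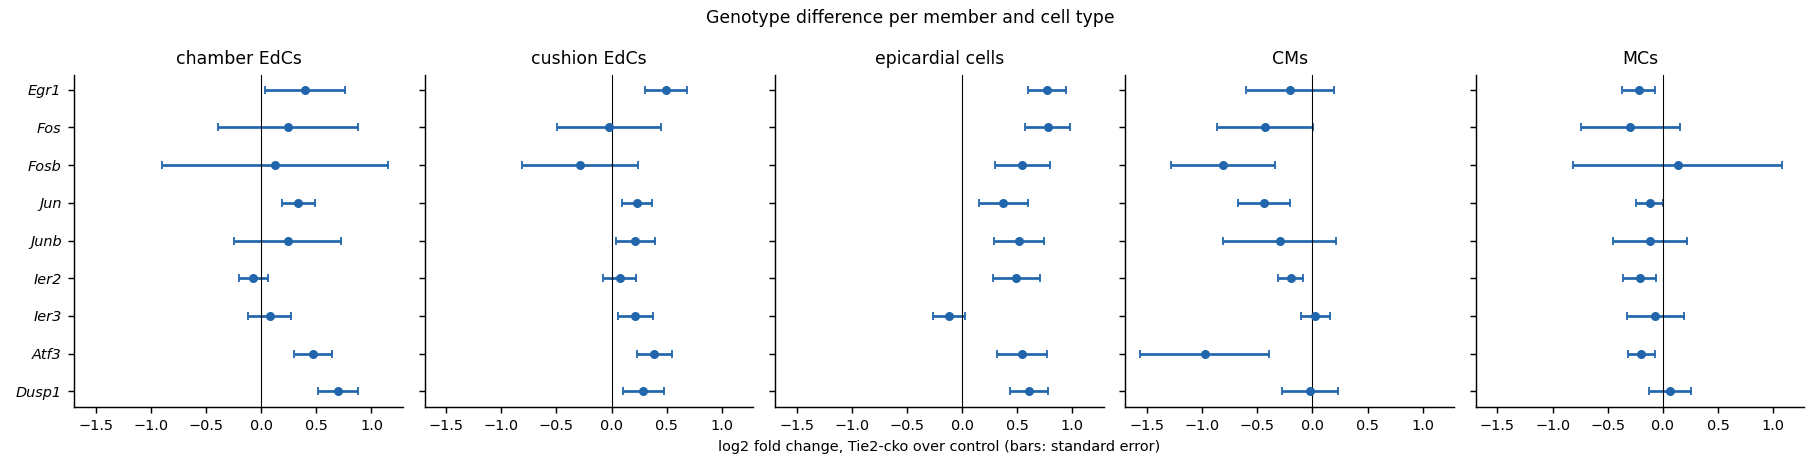
Log2 fold change of Tie2-cko over control for each member in 5 cell types, from edgeR on counts summed per library (points) with standard errors (bars, 2 libraries per genotype). In epicardial cells 8 of 9 points lie above 0, in CMs 1 of 9 does.

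Comparing cell types within a library takes out what a library's cells share. The genotype effect of each member was therefore compared between 2 cell types, in a fit where the library was a block and the term of interest was cell type by genotype. The terms that share chamber EdCs rest on the same sums and are not independent of each other. Over 9 pairs of cell types, 9 of 81 member terms passed.

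Against CMs of the same library, the Egr1 level of chamber EdCs was 36.8% (library 5) and 35.0% (library 7) for controls, and 48.0% (library 6) and 71.6% (library 8) for Tie2-cko. The genotypes did not overlap on this scale, whereas they did on the scale of levels. The term was 0.55 ± 0.13 on the log2 scale (adjusted p = 0.0424). Jun stood at 105% and 81.7% of the CM level in controls and at 165% and 168% in Tie2-cko (0.74 ± 0.11, adjusted p = 0.00113), and Dusp1 at 189% and 129% against 230% and 218% (0.71 ± 0.16, adjusted p = 0.0314). Junb, at 114% and 111% against 195% and 209%, just missed the threshold (0.52 ± 0.13, adjusted p = 0.0501). Of all 15369 genes, 0.943% passed this term against 3 of 9 members.

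The terms of Egr1, Jun and Dusp1 lost their call against CMs when control library 7, the library highest for most members in CMs, was left out (0.46, adjusted p = 0.737 for Egr1; 0.54, adjusted p = 0.141 for Jun; 0.56, adjusted p = 0.700 for Dusp1). Without Tie2-cko library 8 Egr1's term was 0.31 (adjusted p = 0.458), and without Tie2-cko library 6 that of Dusp1 was 0.60 (adjusted p = 0.106).

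Against MCs, Egr1 in chamber EdCs stood at 51.5% and 99.0% in controls and at 76.5% and 190% in Tie2-cko, so that the genotypes overlapped, and the term did not pass (0.65 ± 0.25, adjusted p = 0.276). Single libraries decided it, since it was 1.22 without library 6 (adjusted p = 8.6e-10), 1.14 without library 7 (adjusted p = 3.2e-05) and -0.18 without library 8. Atf3 passed with 62.4% and 48.5% against 81.5% and 90.2% (0.69 ± 0.15, adjusted p = 0.0100). Jun passed with 45.1% and 62.7% against 72.9% and 75.0% (0.47 ± 0.10, adjusted p = 0.00978), and Dusp1 with 76.5% and 76.4% against 115% and 101% (0.64 ± 0.16, adjusted p = 0.0385). Of all genes 1.44% passed. The calls were lost for Atf3 without library 7 (0.43, adjusted p = 0.490), for Jun without library 5 (0.27, adjusted p = 0.401) and for Dusp1 without library 5 (0.61), 6 (0.51) or 7 (0.66).

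Against epicardial cells no member's genotype effect in chamber EdCs differed past the threshold (0.0475% of genes did). Egr1 stood at 27.7% and 65.5% of the epicardial level in controls and at 30.3% and 47.4% in Tie2-cko, at -0.37 ± 0.25 (adjusted p = 0.758). Without library 5 this term was -0.83 (adjusted p = 0.00446), and without library 7 it was 0.23. Against cushion EdCs Egr1 was at 38.5% and 81.4% in controls and at 38.7% and 72.9% in Tie2-cko, at -0.11 ± 0.24, and no member passed there (0.683% of genes did).

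Among the other pairs, Atf3 (1.17 ± 0.23, adjusted p = 0.00620) and Jun (0.64 ± 0.13, adjusted p = 0.0189) passed in cushion EdCs against CMs, where 0.102% of genes did. Atf3 in cushion EdCs was 936% and 208% of the CM level in controls and 1102% and 826% in Tie2-cko, so that library 7 alone stood apart. Without library 7 these terms were 0.10 and 0.22, both with adjusted p = 1.00. Ier2 passed in epicardial cells against MCs (0.71 ± 0.11, adjusted p = 0.0365; 0.0231% of genes passed), at 68.0% and 57.3% in controls against 97.4% and 95.6%. That call was lost without library 6 (0.61) and without library 7 (0.55). Egr1 in epicardial cells against MCs was larger, at 186% and 151% against 253% and 402% (1.04 ± 0.18), but missed the threshold (adjusted p = 0.111).

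No member passed in cushion EdCs against MCs (0.0727% of genes did) or against epicardial cells (0.0485%), or in epicardial cells against CMs (0.00636%).

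**Figure D4:**
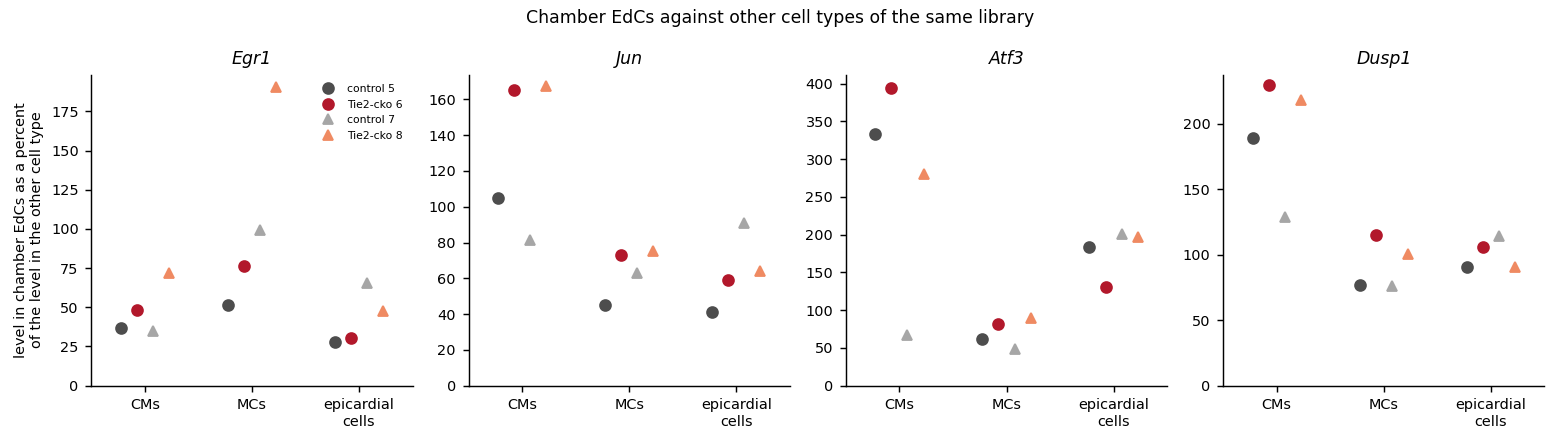
Level of Egr1, Jun, Atf3 and Dusp1 in chamber EdCs as a percent of the level in CMs, MCs and epicardial cells of the same library (points are libraries). For Egr1 both Tie2-cko libraries lie above both controls against CMs only, and for Jun and Dusp1 against CMs and MCs.

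Egr1 was also set against the other 8 members in the same cells. Their summed level in chamber EdCs was 3.28 and 4.17 in controls and 4.17 and 5.04 in Tie2-cko, a difference of 0.31 on the log2 scale, so that control library 7 and Tie2-cko library 6 were level with each other. Egr1 took 5.65% of the UMIs of the 9 members in library 5 (exact 95% interval 4.80 to 6.60), 5.87% in library 6 (4.99 to 6.85), 8.54% in library 7 (7.72 to 9.42) and 10.0% in library 8 (9.07 to 11.1). The intervals cover counting error only and take UMIs as independent, and do not measure the spread between libraries. The shares were lower in libraries 5 and 6 than in libraries 7 and 8. The genotypes differed by 0.857 percentage points (exact permutation test, two-sided, p = 0.667). With 2 libraries a genotype the smallest p this test can give is 0.33. In cushion EdCs Egr1's share was 6.69% and 6.12% in controls against 6.82% and 8.51% in Tie2-cko (p = 0.33, exact), and in CMs it was 15.8% and 19.4% against 17.0% and 22.3% (p = 0.667, exact).

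The share of cells holding an Egr1 UMI was compared after thinning to 5000 UMIs per cell. In chamber EdCs it was 6.97% and 12.4% in controls and 9.89% and 15.9% in Tie2-cko, after 18, 9, 35 and 27 shallower cells of libraries 5, 6, 7 and 8 were left out. Red blood cells, which held the lowest mean Egr1 level of the cell types compared, held 0.894%, 0.697%, 1.94% and 1.90% at the same depth. Shares in chamber EdCs lay above these, but whether red blood cells lack the transcript was not tested. The thinned shares overlapped between genotypes (p = 0.667, exact permutation test). Unthinned shares were 18.0%, 27.9%, 25.6% and 26.2% in libraries 5 to 8, at median depths of 14864, 27638, 12636 and 10989 UMIs in chamber EdCs and 32884, 60281, 22812 and 32470 in red blood cells, whose unthinned shares were 5.41%, 6.56%, 7.32% and 8.29%. In epicardial cells the thinned share was 22.4% and 18.9% in controls and 29.4% and 34.9% in Tie2-cko (p = 0.33, exact, the smallest possible).

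Cells holding several members at once were counted at the same depth. At 5000 UMIs, 3 or more of the 9 members were found in 10.8% and 22.8% of chamber EdCs in controls and in 18.9% and 31.3% in Tie2-cko. In cushion EdCs the shares were 39.1% and 40.3% against 44.8% and 51.7%, without overlap. In epicardial cells library 6 was highest (34.6%) and library 8 next (30.9%), whereas the Egr1 share was highest in library 8. In CMs library 7 stood apart, with 13.7%, 13.9%, 29.0% and 17.9% in libraries 5, 6, 7 and 8.

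**Figure D5:**
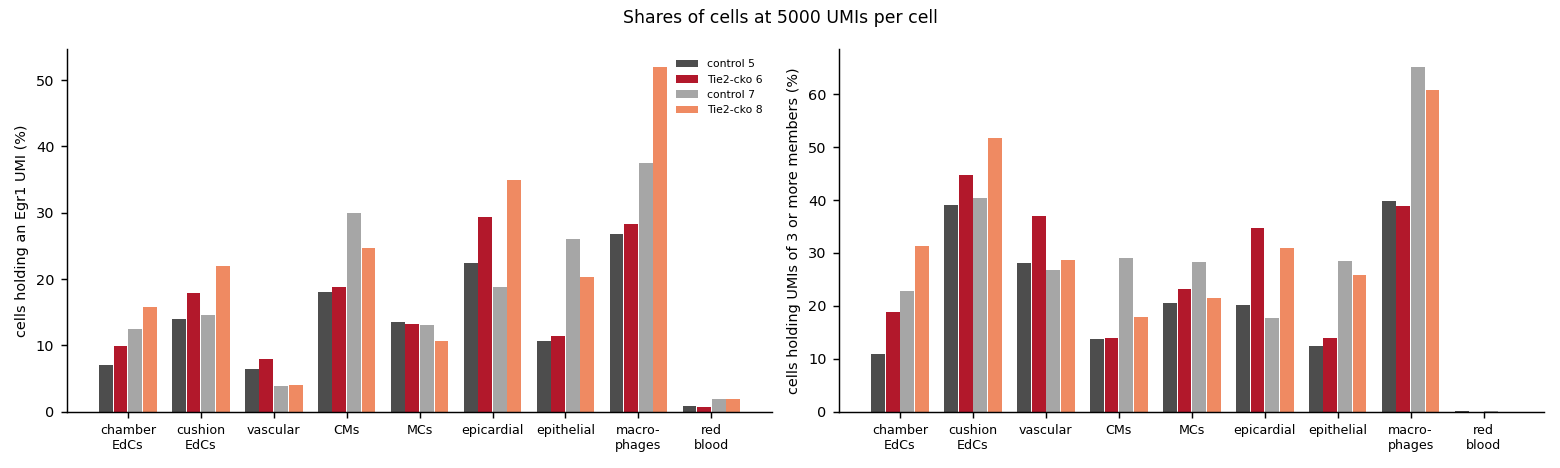
Share of cells (%) holding an Egr1 UMI (left) and holding UMIs of 3 or more members (right) in 9 cell types, with each cell thinned to 5000 UMIs. Each bar is 1 library. In chamber EdCs the Egr1 share runs from 6.97% in control 5 to 15.9% in Tie2-cko 8, and red blood cells stay under 2%.

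Some transcripts of other cell types also differed between the control and Tie2-cko libraries in the same cells. The 5 red blood cell markers, embryonic globin genes among them, were all lower in both Tie2-cko libraries in chamber EdCs, with a summed level of 80.9 and 27.6 in controls and 9.37 and 8.84 in Tie2-cko. The same held for all 5 in cushion EdCs, MCs and epicardial cells, and for 3 of 5 in CMs. In these 5 cell types no marker of the lists was at 0 in all 4 libraries. Of the 8 MC markers 3 were higher and 1 lower in Tie2-cko chamber EdCs, with a summed level of 1.03 and 1.03 against 1.38 and 1.40. The 6 macrophage markers summed to 0.0087 to 0.0270 in chamber EdCs, with 2 lower and none higher in Tie2-cko. Median mitochondrial shares in chamber EdCs were 3.33% to 3.49%. The shares of all genes separated between genotypes in this way are not given here. The part of the red blood cell and MC markers in the members' values was not tested.

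The listed heat shock genes were mostly of the other sign in chamber EdCs. The 12 genes summed to 105 and 105 in chamber EdCs of controls and 102 and 91.9 in Tie2-cko. Of the 10 tested, 2 had a log2 fold change above 0, none passed, and their median was -0.15. Hsp90ab1 and Hspa8, the most abundant, gave -0.11 ± 0.11 and -0.28 ± 0.21.

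Other immediate early genes were mostly above 0. Of 23 listed, 19 were tested in chamber EdCs, 17 of them had a log2 fold change above 0, and none passed. The share of all genes above 0 is not given here. Their median was 0.26 in chamber EdCs, 0.22 in cushion EdCs, 0.08 in MCs, -0.01 in epicardial cells and -0.05 in CMs. Epicardial cells thus combined the highest median of the 9 members with a median near 0 here. The most abundant were Jund, an AP-1 subunit (0.29 ± 0.20), and Mcl1 (0.06 ± 0.13). An unadjusted p under 0.05 (edgeR) was reached by 5 of the 19 in chamber EdCs, and by 7.02% of all genes tested there. All 5 were higher in Tie2-cko: Gadd45b, Socs3, Rhob, Klf6 and Maff, named here after their values were seen. Of the same list, 2 in cushion EdCs reached it, both higher in Tie2-cko. In epicardial cells 3 higher and 1 lower did, in MCs 2, both lower, and in CMs none. Socs3, a feedback inhibitor of cytokine signalling, was 0.0599 and 0.0807 in controls and 0.106 and 0.181 in Tie2-cko (1.16 ± 0.28, adjusted p = 0.346). Klf6, a zinc finger factor, was 0.305 and 0.336 in controls and 0.485 and 0.484 in Tie2-cko (0.60 ± 0.14, adjusted p = 0.304).

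MAPK feedback genes split. Of 11 listed, 10 were tested in chamber EdCs, 7 were above 0 and the median was 0.21, with none past the threshold. Dusp6, the ERK phosphatase, gave 0.45 ± 0.15 and Dusp2 -0.41 ± 0.14, the 2 most abundant thus going opposite ways, with adjusted p = 0.60 and 0.596. The 11 upstream kinases, SRF, ETS and CREB factors and EGR1 corepressors had a median of 0.06, 8 above 0 and none past the threshold, with Map2k2 at -0.21 ± 0.14 and Mapk3 at -0.03 ± 0.13.

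Correlations of the members' standardised log2 levels over sums of cell type and library depended on red blood cells. Over the 32 sums without them, a choice made after seeing the data, Egr1 went with Fos (Pearson's r = 0.87) and Fos with Fosb (0.80). Ier3, Atf3 and Dusp1 went together (Ier3 with Dusp1 0.87, Atf3 with Dusp1 0.87, Ier3 with Atf3 0.76). Values across these sets were 0.14 for Egr1 with Atf3, 0.12 for Egr1 with Dusp1 and 0.04 for Fos with Atf3, while Jun gave 0.69 with Ier3, 0.63 with Dusp1 and 0.31 with Egr1. Over all 36 sums, with red blood cells, Egr1 gave 0.53 with Atf3, 0.37 with Dusp1 and 0.78 with Jun, and Fos gave 0.35 with Atf3. Sums of the same library share depth and handling, so that the values are descriptions. The genes most like the mean of the 9 members over all 36 sums, out of 5275 compared, were Capza1, Mfsd1, Nt5c, Nsf and Mtdh (r = 0.91 each), with the low levels of red blood cells among the sums. Without red blood cells they were Neat1 (0.87), Zbtb7a (0.87), Capza1, Nsf and Zcchc10 out of 5540.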

How the data were processed

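Single cells of E10.5 hearts were profiled in 4 libraries (control 5 and 7, Tie2-cko 6 and 8). The authors deposited filtered matrices of UMI counts, made with Cell Ranger 6.1.2 per the file headers on mm10 per the submitters' processing notes. The methods name an older version of that program. Intervals and floors below cover counting error only.

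Cells with at least 500 genes, 1000 UMIs and at most 10% mitochondrial UMIs were kept. Doublet scores came from Scrublet (scanpy 1.11.5), and the top 0.8% per 1000 cells were removed. Seurat 5.3.0 clustered the cells without integration (2000 variable genes less members and listed genes, 30 components, 20 neighbours, resolution 0.8) into 27 clusters. A cluster was named from markers where at least 3 were present. For few UMIs, for Nrg1 and for Postn, conditions were added once clusters had been seen. Types with at least 20 cells in every library were tested.

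The counts of each library's cells of a type were added up and fitted with edgeR 4.0.16 (quasi-likelihood test, TMM, filterByExpr, Benjamini-Hochberg over all genes, threshold 0.05) under R 4.3.3. The cell type by genotype term had the library as a block. SE is the log2 fold change over the root of F. The fit was tested on simulated data with fold changes larger than those of the members in the main fits. That test therefore does not cover effects of the members' size. Exact permutation tests over libraries were two-sided. Alternatives were DESeq2 1.42.0, other size factors, no filter on low counts, a block, each library left out, other clusterings and cell filters. Choices added after seeing the data were the few-UMI cells, single CM clusters, other pairs of cell types and correlations without red blood cells.

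The named genes are the 9 members, Tek, listed genes past the threshold, the 2 most abundant of each list in chamber EdCs, and the 5 genes most correlated with the members' mean (level of at least 0.2 UMIs per 10000). Also named, after their values were seen, are the 5 other immediate early genes with an unadjusted p under 0.05 in chamber EdCs. Members, lists and markers were chosen with earlier results of these data known. Positions are from GENCODE M21, to which 32235 gene identifiers matched, and promoters from RefSeq (GRCm38.p6).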

Additional observations from a re-analysis of the deposited data

Results flagged for a closer look

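The genotype effect of 9 member terms differed between 2 cell types past the threshold (edgeR's quasi-likelihood test of the cell type by genotype term, Benjamini-Hochberg). In chamber EdCs against CMs the log2 differences were 0.74 for Jun, 0.71 for Dusp1 and 0.55 for Egr1. In chamber EdCs against MCs they were 0.69 for Atf3, 0.47 for Jun and 0.64 for Dusp1. In cushion EdCs against CMs they were 1.17 for Atf3 and 0.64 for Jun, and in epicardial cells against MCs 0.71 for Ier2. Each of these calls was lost when at least 1 of the 4 libraries was left out, namely 8 of the 9 without control library 7, and Jun against MCs without control library 5. Control library 7 was the highest of the 4 libraries for 8 of 9 members in CMs. Its part in these terms beyond these values was not tested.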

How the results depend on the processing

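The labels pair no libraries, since the genotypes share no replicate numbers. The block of libraries 5 and 6 against 7 and 8, each with 1 control and 1 Tie2-cko library, is a paired fit whose pairing was chosen with earlier results known and not from the labels. With that block Egr1 in chamber EdCs gave 0.39 (adjusted p = 0.0206), and the members past the threshold were 4 in chamber EdCs (Egr1, Jun, Atf3 and Dusp1; 7.66% of all genes), 1 in cushion EdCs (Egr1; 0.588%), 2 in CMs (Fosb and Atf3; 0.457%), 6 in epicardial cells (Egr1, Fos, Jun, Ier2, Atf3 and Dusp1; 0.502%) and 1 in vascular endothelial cells (Fos; 0.494%), from 0 in each. All genes past the threshold in chamber EdCs, 1 as reported, were 882 with the block, 172 with no filter on low counts, 24 with DESeq2, 0 with chamber and cushion EdCs summed, and 15 to 90 with a library left out. With no filter on low counts 1 member passed there (Dusp1), and Egr1 against MCs gave 0.65 (adjusted p = 0.00277). The cause was not tested.

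With each library left out in turn, Egr1 in chamber EdCs ran from -0.26 to 0.95, its term against CMs from 0.31 to 0.74, that against MCs from -0.18 to 1.22 and that against epicardial cells from -0.83 to 0.23. Members past the threshold ran from 0 to 2 in epicardial cells, and calls of the other members over all cell types from 0 to 1. At resolution 0.4 Egr1 against CMs gave 0.52 (adjusted p = 0.0994). Dusp1 against CMs lost its call at resolution 0.4 (0.69) and without doublet removal (0.70), and against MCs with relative log expression size factors (0.63), without doublet removal (0.64), with the strict cell filter (0.63) and with listed genes kept for clustering (0.59). With 2 libraries a genotype, and 9 to 50 Fosb UMIs where it was found in chamber EdCs, small differences are not detectable.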

Other observations

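An unnamed cluster of 624 cells led by Phlda2, Rgs5 and Eln held Egr1 at 1.01, 0.949, 1.34 and 0.894 UMIs per 10000 in libraries 5, 6, 7 and 8, and Fos at 1.31, 1.21, 3.31 and 2.03. Library 7 was the highest for 6 of the 9 members in this cluster, and both Tie2-cko libraries were below both controls for 2. In vascular endothelial cells, which held 65 to 98 cells a library, Fos gave a log2 fold change of 1.68 ± 0.61 (unadjusted p = 0.0271, edgeR), from 22, 141, 6 and 22 UMIs in libraries 5, 6, 7 and 8, with levels of 0.104 and 0.105 in controls and 0.192 and 0.122 in Tie2-cko, and 0.676% of genes had an unadjusted p under 0.05 there. Library 6 and the fit decided this value. Without library 6 it was 0.46 and without library 8 it was 2.26. With the block for libraries 5 and 6 against 7 and 8, a division that the labels do not give, it was 1.87.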
